A study of Mus musculus with 6 samples.

Results

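The mRNA levels of 49 genes of mitosis and chromosome segregation were followed in germinal center (GC) B cells and in naive B cells that were sorted from mouse Peyer's patches. The genes were taken by symbol from a list of mitotic kinases, kinetochore and checkpoint proteins, kinesins, condensin subunits and cytokinesis factors, and all 49 were found among the 39179 gene identifiers with a value. RNA-Seq was performed on B cells of wild-type C57BL/6 female mice at 12 weeks of age, without any transgene, deletion or treatment in either group. GC B cells were sorted as Fas+GL7+ B cells and naive B cells, which the study also calls resting, as Fas-GL7- B cells from patches of the ileum. Each group had 3 pools, and a pool combined 5 mice, so that differences between single animals cannot be seen and p-values describe the spread between pools. Levels are given as TPM (a value per transcript length that adds up to 1000000 in each pool), and differences as GC minus naive on the log2(TPM + 1) scale, which understates the change of genes with low values.

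Cells that divide assemble a bipolar spindle, attach every chromosome to it through a kinetochore built on the centromere, and delay anaphase through the spindle checkpoint until attachment is complete. Anaphase starts when the anaphase-promoting complex (APC/C) with Cdc20 marks cyclin B and securin for destruction, which frees separase to cut cohesin. Most mRNAs of this machinery are made late in the cell cycle, under the MuvB complex with Mybl2 and Foxm1, and are repressed in resting cells by the DREAM complex. GC B cells are among the fastest dividing cells of the adult animal, whereas most naive B cells rest outside the cycle.

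The promoters of these genes carry short sequences that are known from cell cycle control, and 8 promoters are shown because their genes stand for the steps of mitosis described below and, in the case of Pttg1, for the gene without a difference. The cell cycle homology region (CHR), bound by MuvB, was searched as TTTGAA or TTCGAA, the box bound by the factor NF-Y as CCAAT, and an E2F site as TTCCCGC or TTGGCGC, all on both strands. The second E2F word can share bases with a CCAAT box, as it does at the first CCAAT box shown for Ccnb1, where the E2F word begins just upstream of the stretch. Each sequence runs 5′ to 3′ from 100 bases before to 50 bases after the start site in the RefSeq table for GRCm38.p6, with CHR and CCAAT letters in capitals, also where they read on the other strand (TTCAAA for CHR and ATTGG for CCAAT). The positions are chr10:69352863-69353012 (minus strand) for Cdk1, chr13:100786437-100786586 (minus strand) for Ccnb1, chr9:70421505-70421654 (minus strand) for Ccnb2, chr7:122159335-122159484 (plus strand) for Plk1, chr4:118437294-118437443 (minus strand) for Cdc20, chr2:164769829-164769978 (plus strand) for Ube2c, chr9:61946750-61946899 (minus strand) for Kif23 and chr11:43425932-43426081 (minus strand) for Pttg1.
Cdk1: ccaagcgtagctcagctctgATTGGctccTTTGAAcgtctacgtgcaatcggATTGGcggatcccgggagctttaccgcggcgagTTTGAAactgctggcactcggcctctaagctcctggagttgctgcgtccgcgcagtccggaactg
Ccnb1: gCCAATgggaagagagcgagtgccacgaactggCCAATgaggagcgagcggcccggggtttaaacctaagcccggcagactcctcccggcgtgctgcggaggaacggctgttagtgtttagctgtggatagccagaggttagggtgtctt
Ccnb2: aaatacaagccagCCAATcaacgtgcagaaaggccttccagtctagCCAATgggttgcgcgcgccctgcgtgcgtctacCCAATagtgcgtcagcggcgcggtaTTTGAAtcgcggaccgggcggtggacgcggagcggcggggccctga
Plk1: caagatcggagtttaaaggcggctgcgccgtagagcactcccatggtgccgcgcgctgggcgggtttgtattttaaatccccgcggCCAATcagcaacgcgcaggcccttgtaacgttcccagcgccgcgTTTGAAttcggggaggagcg
Cdc20: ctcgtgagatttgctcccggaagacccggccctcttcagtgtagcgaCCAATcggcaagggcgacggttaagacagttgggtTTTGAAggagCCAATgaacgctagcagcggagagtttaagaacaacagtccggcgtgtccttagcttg
Ube2c: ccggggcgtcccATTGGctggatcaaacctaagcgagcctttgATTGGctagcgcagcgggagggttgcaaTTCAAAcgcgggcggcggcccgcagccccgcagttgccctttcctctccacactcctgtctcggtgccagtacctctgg
Kif23: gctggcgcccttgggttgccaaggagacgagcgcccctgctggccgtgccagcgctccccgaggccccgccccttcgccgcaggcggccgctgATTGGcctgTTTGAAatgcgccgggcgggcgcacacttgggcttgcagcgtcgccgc
Pttg1: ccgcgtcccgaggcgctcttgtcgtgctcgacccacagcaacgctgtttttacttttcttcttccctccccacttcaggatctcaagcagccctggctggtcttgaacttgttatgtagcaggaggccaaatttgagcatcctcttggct
Cdk1 had 2 CHR words in this stretch, 1 on either side of the CCAAT box nearest to the start. In Ccnb2, Plk1, Cdc20, Ube2c and Kif23 a CHR word lay within 50 bases of the start with a CCAAT box upstream of it. Ccnb1 showed a pair of CCAAT boxes and no CHR letters, and Pttg1 showed neither word. Whether the listed start site, that of Pttg1 included, is the one used in these B cells cannot be seen from the data.

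Over the 43 promoters that the table held for 41 of the genes, 33 (76.7%) had CHR letters within the window of 250 bases before to 50 after the start, against 19.2% of all 32851 promoters of the table. CCAAT letters were found in 31 (72.1%, against 37.4%), at least 2 CCAAT boxes in 20 (46.5%, against 11.7%), and CHR together with CCAAT in 29 (67.4%, against 7.52%). E2F letters were less frequent, with 10 promoters (23.3%, against 6.81%), among them those of Cdk1, Mki67 and Ncapd2. The position of the CHR letters was narrow: 31 of 45 matches were centred within 50 bases of the start site, and 30 promoters (69.8%) held such a match, against 5.51% of all promoters. Of the 71 CCAAT matches, 35 were centred from 100 to 20 bases before the start. None of the 3 motifs was found for Pttg1, Birc5, Mad2l1, Mybl2, Nuf2 and Nusap1, which says only that these letters are not in the window. Ect2 and Prc1 each had 2 listed start sites whose windows overlap, so that their motif sites were counted once for each window. Aurkb, Ccna2, Foxm1, Incenp, Kif20a, Smc4, Spc24 and Tpx2 had no entry.

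**Figure D1:**
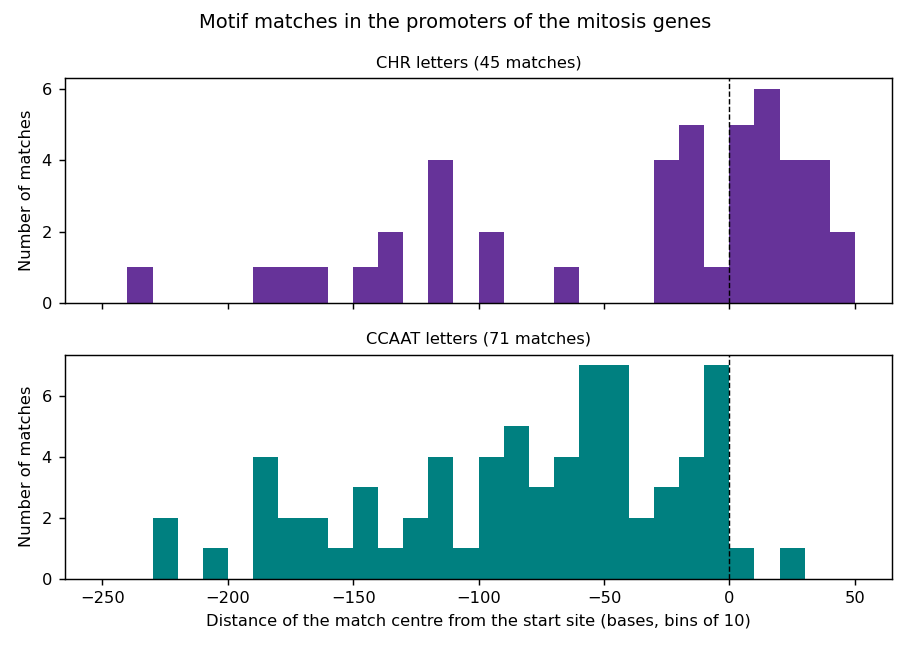
Number of CHR matches (upper panel) and CCAAT matches (lower panel) in the promoters of the mitosis genes, by the distance of the match centre from the start site in bases (bins of 10, start site at the dashed line). Of the 45 CHR matches 31 lie within 50 bases of the start. The 71 CCAAT matches lie mostly upstream of it, with 35 of them from 100 to 20 bases before the start. Sites of Ect2 and Prc1 are counted for each of their listed start sites.

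In GC B cells, 48 of the 49 genes were expressed at higher levels than in naive B cells (limma across all genes tested, adjusted p under 0.05), none was lower, and Pttg1 alone was not called. Among all 12785 genes tested, 35.5% were higher and 30.1% lower in GC B cells. Every GC pool lay above every naive pool for the same 48 genes, which holds for 37.8% of all genes tested, and the mean in GC B cells was at least 10 times the naive mean for 44 genes, which holds for 4.79% of all genes. The ratio of the means had a median of 63.8 and the log2 difference a median of 4.90, against a median log2 difference of 0.03 over all genes, whose 5th and 95th percentiles were -1.76 and 2.17. All 49 genes passed the filter of at least 1 TPM in at least 3 pools, but only 26 of them reached 1 TPM in every pool. The others passed through their GC values, and 14 of these stayed under 1 TPM in every naive pool.

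Summed over the 49 genes, TPM was 4712, 4746 and 4735 in the GC pools (4731 ± 17.2, mean ± SD, n = 3) and 263, 273 and 248 in the naive pools (262 ± 12.4, n = 3), an 18.1-fold ratio of the means. These genes thus took 0.473% of all transcripts in GC B cells and 0.0262% in naive B cells. In bulk RNA, a larger share of cells that express a gene and more RNA of that gene per cell cannot be told apart. GC pools differed little among themselves, with a median coefficient of variation of 3.51% over the 49 genes. The median was 5.95% for the 7879 other genes with a GC mean of 10 to 410 TPM. Genes were not matched for level within this range, and whether level accounts for the lower variation was not tested. No GC pool stood apart, since pools 1, 2 and 3 were the highest for 19, 16 and 14 genes. Naive pools varied more (median 27.3%), at levels where 18 genes averaged under 1 TPM, 25 between 1 and 10 TPM and 6 above. By the depth estimated for each pool, 1 TPM of a transcript of 2 kb stands for 14.2 to 23.5 reads, so that ratios against the lowest naive values rest on few reads.

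**Figure D2:**
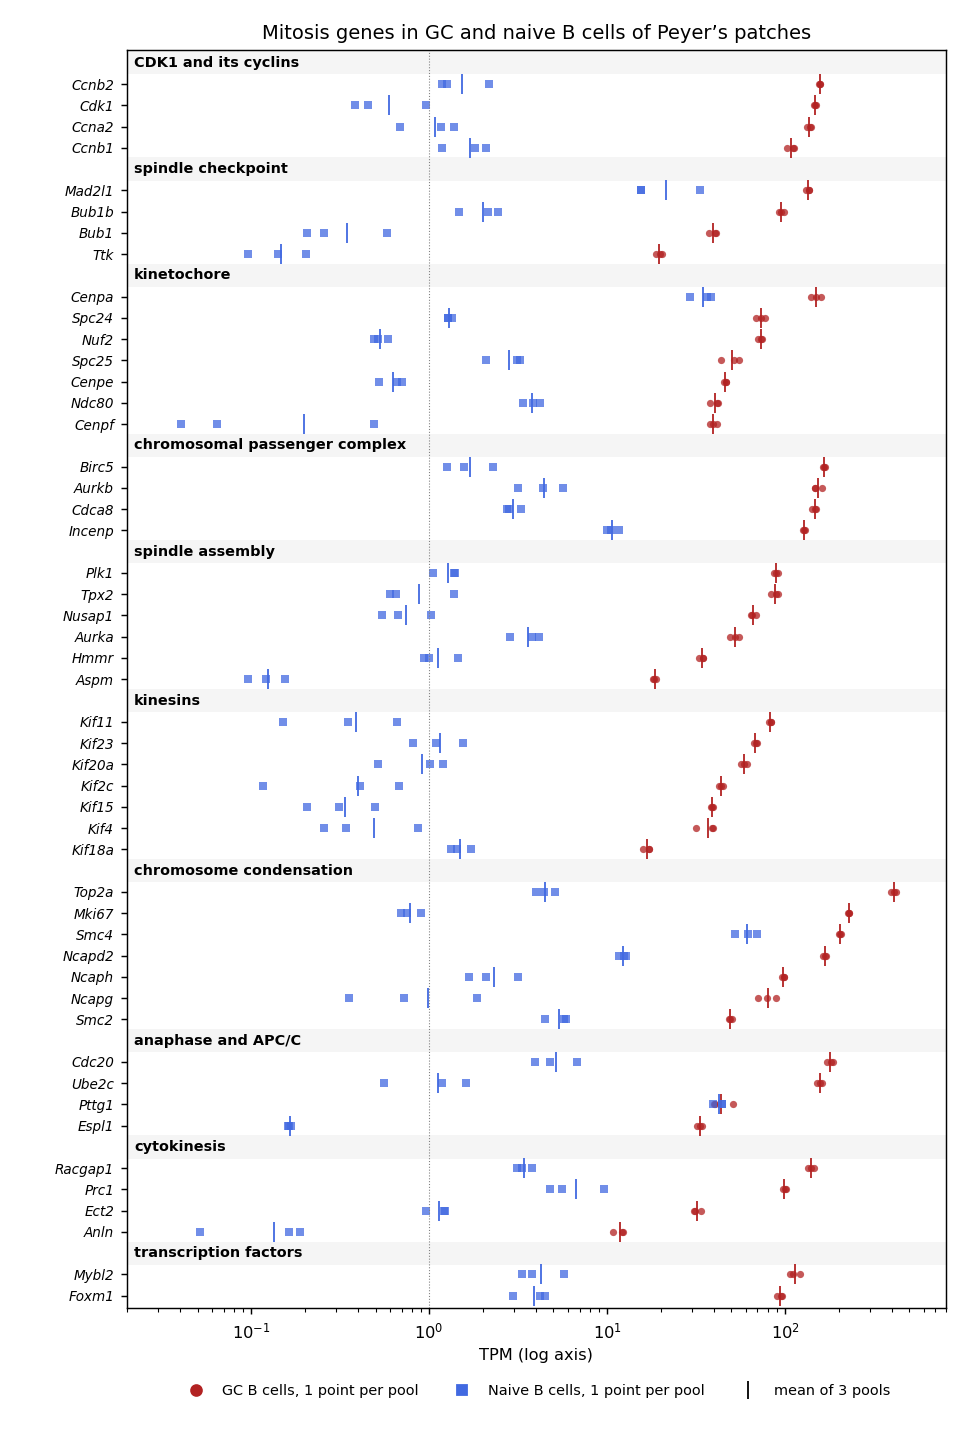
TPM of the 49 mitosis genes in each pool on a log axis, grouped by role and ordered by the GC mean, with GC pools as red circles, naive pools as blue squares and the mean of 3 pools as a vertical tick. GC values lie between 10.8 and 422 TPM and the circles of a gene nearly coincide, naive values lie between 0.04 and 69.8 TPM, and the groups overlap for Pttg1 only.

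The kinase Cdk1 and its cyclins opened the order of the roles. Cdk1, whose activity with cyclin B drives entry into mitosis, measured 149, 148 and 145 TPM in the GC pools and 0.96, 0.38 and 0.45 TPM in the naive pools. The lowest GC value was thus 151 times the highest naive value, and the log2 difference was 6.55 (SE 0.14, limma adjusted p = 2.90e-07). Ccnb1, cyclin B1, measured 102, 112 and 111 TPM against 1.19, 1.82 and 2.09 TPM, with a difference of 5.36 (SE 0.14, adjusted p = 5.09e-07), the smallest of the 4. Ccna2, the cyclin of S and G2 phase, and Ccnb2, cyclin B2, had ratios of 127 and 102. Transcripts of Ccnb2 exceeded those of Ccnb1 by a factor of 1.39 to 1.54 in the GC pools, whereas their ratio was 0.60 to 1.19 in the naive pools. The 4 genes lay between 108 and 156 TPM in GC B cells on average, and their median ratio of 115 was the highest of the 10 roles.

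Among the spindle checkpoint genes, Bub1b (BubR1) measured 98.7, 92.7 and 94.5 TPM in the GC pools and 1.47, 2.15 and 2.43 TPM in the naive pools, with the largest difference of this role (5.01, SE 0.13, limma adjusted p = 5.19e-07). Mad2l1, which encodes the checkpoint protein Mad2, showed the smallest. It measured 136, 136 and 131 TPM in GC pools and 15.6, 15.4 and 33.4 TPM in naive pools, so that naive pool 3 was above the others, and its difference was 2.68 (SE 0.29, adjusted p = 2.42e-04). The kinases Bub1 and Ttk (Mps1) were under 1 TPM in every naive pool, with ratios of 113 and 134. These exceeded the ratio of Bub1b, 47.3, so that Bub1b led this role on the log2(TPM + 1) scale only. Without naive pool 3 the ratio of Bub1 was 171.

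Kinetochore genes ranged widely. Nuf2, a subunit of the NDC80 complex that binds microtubules, measured 70.9, 74.4 and 73.7 TPM in GC pools against 0.51, 0.59 and 0.49 TPM in naive pools (difference 5.60, SE 0.08, limma adjusted p = 1.13e-07). Its partner Ndc80 averaged 40.4 ± 2.33 TPM in GC pools and 3.81 ± 0.43 TPM in naive pools (SD, n = 3 each), a ratio of 10.6. The transcript ratio of Nuf2 to Ndc80 was therefore 1.68 to 1.97 in GC pools and 0.12 to 0.15 in naive pools, without overlap. Spc24 and Spc25, the other subunits of the complex, likewise had ratios of 56.4 and 17.8. Cenpa, the histone H3 variant that marks centromeres, had the smallest difference of this role, with 140, 159 and 149 TPM against 38.3, 36.3 and 29.1 TPM (2.09, SE 0.11, adjusted p = 9.86e-06). Naive B cells thus held 23.2% of the GC level of Cenpa, whereas the kinetochore motor Cenpe and the corona protein Cenpf stayed at 1.36% and 0.505%. For Cenpf, 1 naive pool carried most of the signal (0.04, 0.49 and 0.06 TPM), and its ratio of 198 was 751 without naive pool 2.

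The chromosomal passenger complex, which corrects wrong attachments and later acts in cytokinesis, was among the most abundant roles, with its 4 genes between 128 and 165 TPM in GC B cells. Birc5 (survivin) measured 167, 163 and 166 TPM in GC pools and 1.57, 1.26 and 2.29 TPM in naive pools, a difference of 5.96 (SE 0.14, limma adjusted p = 3.61e-07). For the kinase Aurkb the values were 148, 148 and 162 TPM against 4.36, 5.67 and 3.16 TPM (4.86, SE 0.17, adjusted p = 1.54e-06). Incenp, the scaffold of the complex, had the smallest difference of the role, with 126, 128 and 130 TPM against 10.5, 11.7 and 9.95 TPM (3.46, SE 0.07, adjusted p = 2.69e-07). The 4 genes of this complex were thus close to each other in GC B cells but spread from 1.70 TPM for Birc5 to 10.7 TPM for Incenp in naive B cells. Cdca8 (borealin) had a ratio of 49.7.

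Of the spindle assembly factors, Tpx2, which activates Aurora A on the spindle, had the largest difference, with 83.0, 88.9 and 90.8 TPM in GC pools and 0.65, 0.60 and 1.38 TPM in naive pools (5.58, SE 0.17, limma adjusted p = 8.37e-07). Plk1, the polo kinase of centrosome maturation and mitotic entry, measured 89.3, 91.4 and 87.1 TPM against 1.38, 1.40 and 1.05 TPM (5.31, SE 0.09, adjusted p = 1.67e-07). Aurka itself had the smallest difference, with 55.4, 52.6 and 49.2 TPM against 3.79, 2.86 and 4.13 TPM (3.55, SE 0.12, adjusted p = 1.64e-06). Aurora B transcripts exceeded those of Aurora A by a factor of 2.67 to 3.29 in GC pools, against 0.77 to 1.98 in naive pools. Nusap1, Hmmr and Aspm, which organize spindle microtubules and poles, had ratios of 88.3, 30.3 and 149. The ratio of Tpx2 was 99.8, below that of Aspm, so that Tpx2 led on the log2(TPM + 1) scale only.

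Kinesins had the lowest median naive level of the 10 roles (0.49 TPM), and 5 of the 7 averaged under 1 TPM there. Kif11 (Eg5), the motor that pushes the spindle poles apart, measured 83.1, 81.6 and 83.7 TPM in GC pools and 0.66, 0.15 and 0.35 TPM in naive pools (5.93, SE 0.14, limma adjusted p = 3.89e-07). Kif18a, which dampens chromosome movements at the metaphase plate, had the lowest mean of the kinesins in GC pools and the highest mean in naive pools, with 16.0, 17.3 and 17.3 TPM against 1.43, 1.33 and 1.72 TPM (2.84, SE 0.11, adjusted p = 2.13e-06). The other 5 had ratios of 59.2 (Kif23, the motor of centralspindlin), 65.0 (Kif20a), 75.3 (Kif4), 109 (Kif2c, a microtubule depolymerase) and 115 (Kif15). Naive pool 1 was the highest for Kif11, Kif2c and Kif4, and without it their ratios were 332, 166 and 122 in place of 214, 109 and 75.3.

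Chromosome condensation held the largest difference and the highest GC level of the whole set. Mki67, which encodes the Ki-67 antigen of the surface of mitotic chromosomes, had the largest difference of all 49 genes, with 228, 227 and 229 TPM in GC pools and 0.90, 0.75 and 0.70 TPM in naive pools (7.01, SE 0.07, limma adjusted p = 5.28e-08). Top2a, the topoisomerase that untangles sister chromatids, was the most abundant in GC B cells, with 409, 392 and 422 TPM against 5.10, 3.97 and 4.43 TPM (6.22, SE 0.09, adjusted p = 1.13e-07). Its paralog Top2b, which is used outside the cycle as well, averaged 129 ± 4.85 TPM in GC pools and 79.3 ± 5.49 TPM in naive pools (SD, n = 3 each), so that the ratio of Top2a to Top2b was 2.92 to 3.40 in GC pools and 0.05 to 0.06 in naive pools. Smc4 had the smallest difference of the called genes, with 205, 202 and 203 TPM against 62.2, 69.8 and 52.4 TPM (1.72, SE 0.10, adjusted p = 1.56e-05). Smc4 and Smc2 form the ATPase core shared by condensin I and II, yet Smc2 was at 49.1 ± 1.09 TPM and 5.37 ± 0.76 TPM (SD, n = 3 each). Smc4 transcripts exceeded those of Smc2 by a factor of 4.08 to 4.20 in GC pools and 10.8 to 11.9 in naive pools. The condensin I subunits Ncapd2, Ncaph and Ncapg had ratios of 13.6, 42.1 and 81.6, and that of Ncapg was 148 without naive pool 1.

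Anaphase genes included the only one without a difference. Ube2c, the ubiquitin-conjugating enzyme of the APC/C, measured 158, 162 and 151 TPM in GC pools and 1.17, 1.62 and 0.56 TPM in naive pools (6.25, SE 0.19, limma adjusted p = 8.62e-07). Cdc20, its activator in metaphase, had 179 ± 7.61 TPM against 5.15 ± 1.44 TPM (SD, n = 3 each), a ratio of 34.9. Pttg1, which encodes securin, measured 40.1, 50.7 and 40.5 TPM in GC pools and 44.1, 44.0 and 39.4 TPM in naive pools. The groups overlapped, and the difference was 0.03 (SE 0.11, 95% confidence interval -0.22 to 0.29, adjusted p = 0.794). Its sign changed under other scalings and without either of 2 pools, but the upper end of the interval stayed below the 1.72 of Smc4, the smallest difference among the called genes. Espl1, which encodes the separase that securin holds inactive, measured 33.2, 32.1 and 34.3 TPM against 0.16, 0.16 and 0.17 TPM, a ratio of 201. Transcripts of Pttg1 exceeded those of Espl1 by a factor of 1.18 to 1.58 in GC pools and 235 to 273 in naive pools. Securin mRNA was the second most abundant of the 49 in naive B cells, behind Smc4, and its coefficient of variation of 13.7% among GC pools was the highest of the 49.

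Among cytokinesis genes, Racgap1, which forms centralspindlin with Kif23, had the largest difference, with 135, 140 and 146 TPM in GC pools and 3.11, 3.34 and 3.81 TPM in naive pools (5.001, SE 0.08, limma adjusted p = 1.36e-07). The smallest was that of Anln (anillin, a scaffold of the contractile ring), with 12.4, 10.8 and 12.2 TPM against 0.19, 0.16 and 0.05 TPM (3.49, SE 0.12, adjusted p = 1.48e-06). Anln was also the least abundant of all 49 genes in GC B cells, so that its difference on this scale is limited by its level. Its ratio was 87.3, above the 41.0 of Racgap1. Prc1, which bundles the midzone microtubules, and Ect2, the exchange factor for RhoA, had ratios of 14.9 and 28.2.

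Foxm1, a forkhead transcription factor of the late cell cycle, measured 94.8, 96.7 and 89.7 TPM in GC pools and 4.21, 2.94 and 4.48 TPM in naive pools (4.29, SE 0.13, limma adjusted p = 1.01e-06). Mybl2 (B-Myb), which joins MuvB before Foxm1 does, measured 107, 122 and 111 TPM against 3.78, 5.72 and 3.33 TPM (4.46, SE 0.17, adjusted p = 2.22e-06). No pool of either group overlapped the other, and the ratios of 24.2 and 26.5 lay below the median of the 49 genes.

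The order of levels in GC B cells ran from Top2a (408 ± 15.4 TPM, SD, n = 3) over Mki67 (228 ± 1.04), Smc4 (203 ± 1.58) and Cdc20 (179 ± 7.61) down to Ttk (19.7 ± 0.84), Aspm (18.5 ± 0.38), Kif18a (16.8 ± 0.75) and Anln (11.8 ± 0.85). Between these ends the levels formed a near continuum, and in 32 of the 48 pairs of neighbours the pools overlapped. In naive B cells 6 genes averaged at least 10 TPM, namely Smc4 (61.5 ± 8.70 TPM), Pttg1 (42.5 ± 2.68), Cenpa (34.6 ± 4.83), Mad2l1 (21.5 ± 10.4), Ncapd2 (12.3 ± 0.54) and Incenp (10.7 ± 0.91). The naive level was 1.57% of the GC level in the median gene. For comparison, Fas, on which the populations were sorted, averaged 114 ± 5.55 TPM in GC pools and 3.22 ± 0.31 TPM in naive pools (SD, n = 3 each), so that naive pools held 2.82% of its GC level. The part of GC or other dividing cells in the naive values was not tested.

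**Figure D3:**
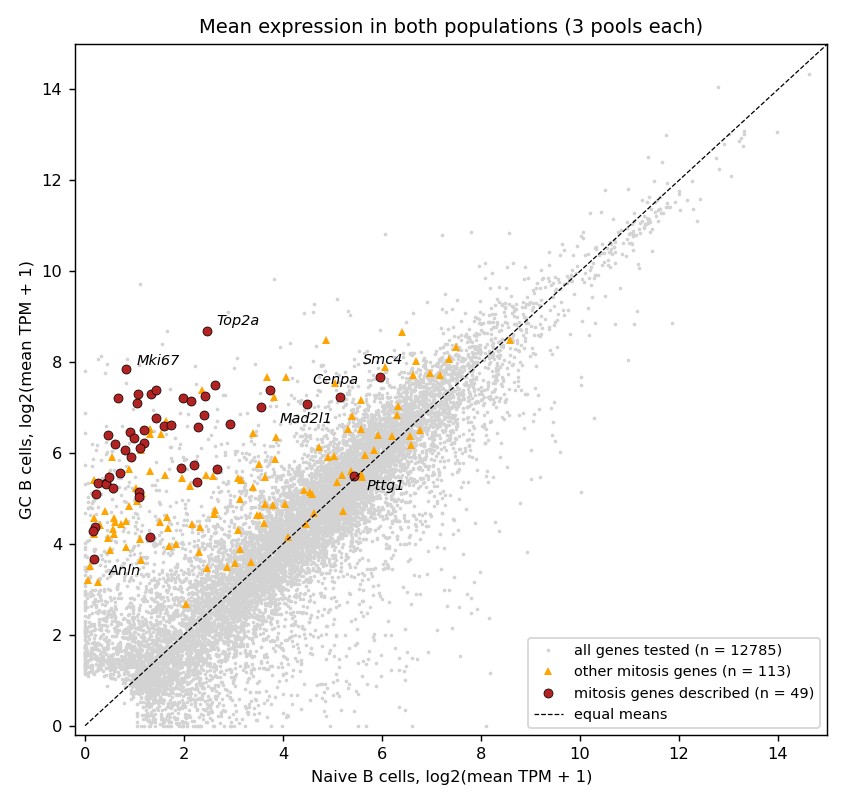
Mean level of each tested gene in naive B cells (x axis) and GC B cells (y axis), both as log2(mean TPM + 1) over 3 pools, with the 49 genes as red circles, 113 other mitosis genes as orange triangles, all 12785 genes tested as grey points and equal means as a dashed line. The red circles fill the upper left edge of the cloud, led by Mki67 and Top2a, Smc4, Cenpa and Mad2l1 lie nearer to the line, and Pttg1 lies on it.

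A further 113 genes of mitosis, chosen by their textbook roles, were all matched and tested. Of these, 98 were higher in GC B cells, 4 were lower and 11 were not called by limma, against the shares of 35.5% and 30.1% of all genes. Their median ratio was 4.91, and 43 reached a ratio of 10, against 4.79% of all genes tested. The largest log2 differences were those of Cdca5 (sororin, which protects cohesin; 5.37), Kif18b (5.23), the centrosomal kinase Nek2 (5.22), the spindle protein Spag5 (5.20) and the chromokinesin Kif22 (5.11). Kif18b was at 38.5, 44.6 and 40.8 TPM in GC pools and at 0.11, 0.11 and 0.17 TPM in naive pools, a ratio of 322.

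The counts by subgroup stand against 35.5% of all genes tested that were higher. All 6 genes of condensin II and the chromosome scaffold and all 6 of centriole duplication were higher, with median ratios of 3.88 and 2.83. The constitutive kinetochore had 21 of 23 genes higher (median ratio 6.53), and Cenpo and Cenpq, at 1.03 and 0.98, were not called. Checkpoint and cohesion factors had 13 of 14 higher (10.1), entry into mitosis 13 of 14 (8.54), other kinesins and spindle factors 15 of 17 (11.4) and other cytokinesis factors 8 of 9 (18.7). Bub3, a checkpoint protein with further roles outside mitosis, had a ratio of 3.02.

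The APC/C itself moved least. Of its 16 subunits and regulators 11 were higher and none lower, against 35.5% and 30.1% of all genes tested. The median ratio was 1.43, however, and no gene reached 10. The largest was that of Ube2s, the enzyme that extends ubiquitin chains after Ube2c, at 413, 409 and 392 TPM against 90.5, 76.6 and 84.8 TPM, a ratio of 4.83. Anapc4, a scaffold subunit, measured 39.0, 41.8 and 48.9 TPM in GC pools and 47.4, 44.8 and 49.4 TPM in naive pools (-0.13, SE 0.09, limma adjusted p = 0.271). The ratios of these 16 genes thus ran from 0.92 to 4.83, whereas Cdc20 and Ube2c, which bind its substrates and bring the ubiquitin, had ratios of 34.9 and 141.

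In the DREAM and MuvB group 5 of 8 genes were higher, against 35.5% of all genes tested. The median ratio was 1.66, and the largest was 12.9 for Tfdp1, the partner of E2F proteins. Rbl2 (p130), the pocket protein of DREAM in resting cells, was lower in GC B cells, at 28.4, 23.5 and 24.4 TPM against 35.2, 35.9 and 37.2 TPM (-0.49, SE 0.08, limma adjusted p = 0.00225). Rbl1 (p107), its relative, was higher, with a ratio of 5.05. Numa1, which anchors microtubules at spindle poles, was lower at 68.8, 70.7 and 73.8 TPM against 93.9, 100.3 and 89.6 TPM (-0.41, SE 0.06, adjusted p = 0.00104). Ensa, an inhibitor of the phosphatase PP2A, was lower by a smaller amount (-0.20, SE 0.05, adjusted p = 0.0121), with all GC pools below all naive pools. Rhoa, the GTPase of the contractile ring and of the cytoskeleton in general, differed by -0.10 (SE 0.03, adjusted p = 0.0295), a call that was lost under 6 of 15 alternatives. The dynein heavy chain Dync1h1 measured -0.27 (adjusted p = 0.0847) and was not called. Its GC pools, like those of Ensa, all lay below its naive pools, which held for 4199 of the 12785 genes tested.

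**Figure D4:**
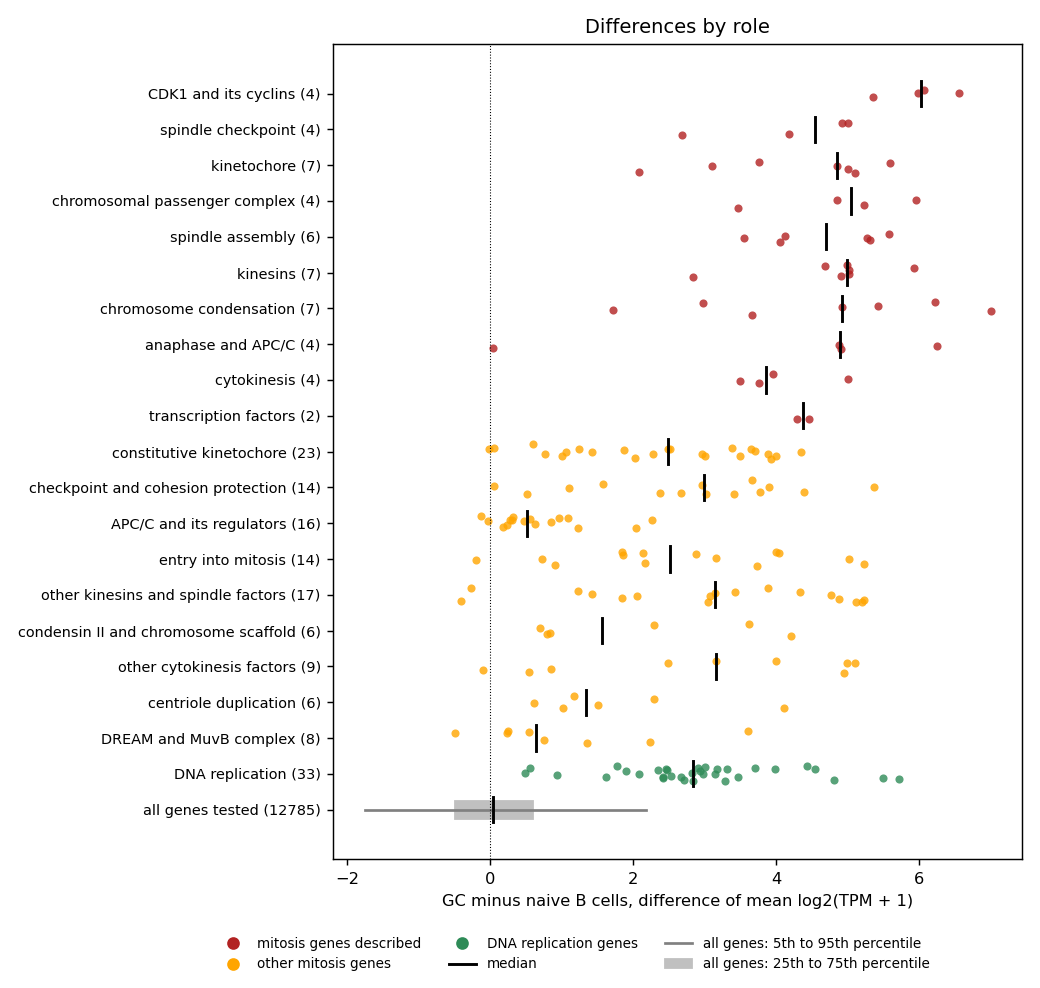
Difference of mean log2(TPM + 1), GC minus naive B cells, for each gene by role (number of genes in parentheses), with the 49 genes in red, other mitosis genes in orange, DNA replication genes in green and the median of each row as a black tick. The bottom row gives the 5th to 95th percentile of all genes tested (-1.76 to 2.17, line) with their 25th to 75th percentile (box), and of the red points Pttg1, Smc4 and, at the upper end, Cenpa lie inside the line.

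Genes of DNA replication, the preceding phase of the cycle, gave a second scale. All 33 genes of a replication list were higher in GC B cells, against 35.5% of all genes tested. Their median ratio was 7.92, and 11 had a ratio of 10 or more, against 4.79% of all genes tested. Their summed TPM was 4722 ± 78.1 in GC and 866 ± 19.3 in naive B cells (SD, n = 3 each), a ratio of 5.45 against 18.1 for the mitosis genes. In GC B cells both sums were alike, though they covered 33 and 49 genes. The medians there were 102 TPM for replication genes and 82.8 TPM for mitosis genes. In relative terms the lists lay further apart in naive B cells, with medians of 17.2 TPM for replication genes and 1.30 TPM for the 49 mitosis genes. The promoters of both lists differed too: 6 of 30 replication promoters and 33 of 43 mitosis promoters had CHR letters, whereas 15 and 10 had E2F letters. Of the 106 promoters of other mitosis genes, 42.5% had CHR letters and 21.7% E2F letters.

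Sorting of the populations was checked with marker genes. Bcl6, the repressor that GC B cells require, averaged 249.8 ± 8.14 TPM in GC pools and 49.2 ± 2.33 TPM in naive pools (SD, n = 3 each). Klf2, a factor of resting lymphocytes, averaged 4.16 ± 0.93 TPM and 287 ± 41.2 TPM, and Ccr7, the chemokine receptor of naive cells, 1.01 ± 0.34 TPM and 87.6 ± 8.46 TPM. Of the B cell markers, the receptor subunit Cd79a averaged 1077 ± 21.1 TPM in GC pools and 2349 ± 46.0 TPM in naive pools and was lower in GC B cells, as were Cd79b, Cd22 and Pax5, whereas Ms4a1 was higher, at 931 ± 24.998 TPM and 717 ± 7.88 TPM. T cell markers were near 0 in all pools (2.05 to 4.40 TPM in GC and 2.41 to 3.28 in naive pools for 6 genes, with 3 of them under 1 TPM in every pool), and the sums of 6 myeloid markers were 13.9 to 15.8 and 8.93 to 14.1 TPM, mostly Cd68. The 4 plasma cell markers summed to 131 to 135 and 192 to 212 TPM. Markers of intestinal epithelium, a tissue with dividing cells, were measured in both groups: 10 genes summed to 67.1, 143 and 77.6 TPM in GC pools and 233, 195 and 192 TPM in naive pools, with 2 of them higher and 6 lower in GC B cells. The part of epithelial cells in the values of the mitosis genes was not tested.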

How the data were processed

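RNA-Seq of 3 GC and 3 naive B cell pools was used. Per the study's methods, adapters were removed with cutadapt 1.9 and RSEM 1.2.25 quantified the reads against mouse transcripts of NCBIm38 v75, and the authors deposited FPKM values per gene and pool. The submitters' processing notes also name Casava 1.8, FastQC and edgeR, without a role for the last. The library kit is not stated to keep strand, so that reads of overlapping genes on opposite strands cannot be told apart, and RSEM divides reads between similar genes.

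FPKM was rescaled to TPM (FPKM divided by the pool total, times 1000000). The groups were tested by limma (version 3.58.1, R 4.3.3; lmFit, then eBayes with trend) on log2(TPM + 1), a pseudocount of 1. The 12785 genes that reached 1 TPM in 3 or more pools were fitted together, and calls were made where p, adjusted over all of them by Benjamini-Hochberg, was below 0.05. No counts were used. Depth was estimated at 9.65 to 16.1 (in units of 1000000 reads per pool) from the steps of low FPKM values. Of these values 63.5 to 69.3% were within 0.1 reads of a whole number, a share too low to rebuild counts for a count test. Where several depths fitted the steps nearly as well, the lowest was taken, so that the depth is a rough estimate. The fit was also run on simulated data, in which far fewer genes differed than were called here, so that run gives no error rates for these data. Tables and figures were made in Python 3.11.15 (numpy 2.4.6, pandas 2.3.3 and matplotlib 3.10.9).

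Symbols were found for 33398 of 39179 identifiers. The naive marker Ighd was not matched and is not analysed here, some further marker genes are not reported here, and 7 of the 113 other mitosis genes were matched by a synonym. Promoters came from the RefSeq table for GRCm38.p6, the same assembly family as the files. All 49 genes could be named, with values per pool for the largest and smallest difference in each role, for Cdk1, Ccnb1, Plk1, Aurkb, Mki67, Top2a, Foxm1 and Mybl2, and for genes not called higher or listed at 0; of the other mitosis genes, the 5 largest, the 5 smallest and those called lower. Further genes were named after their values were seen. The genes, lists and tests were chosen with earlier results of these data known. Replicates within a group correlated at 0.963 to 0.972, with at most 1.48% identical values. Alternatives were other pseudocounts (0.1 and 0.01), filters, scalings, no trend, a replicate block and leaving out each pool.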

Additional observations from a re-analysis of the deposited data

How the results depend on the processing

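Under all 15 alternatives 48 of the 49 mitosis genes were higher in GC B cells and none was lower. For the 48 genes other than Pttg1, all 720 values kept their direction and call, with log2 differences from 1.58 to 8.32 and adjusted p values (limma) of at most 0.00154. The difference of Pttg1 was never called, and its sign turned on the FPKM scale (-0.016), with quantile normalization (-0.071), with scaling to a common median (-0.032), without GC replicate 2 (-0.074) and without naive replicate 3 (-0.018), against 0.034. Without 1 pool it ranged from -0.074 to 0.092. The summed level of the 49 genes was 4731 TPM in GC pools, and 3415 in FPKM, 4532 with quantile normalization and 4623 with the common median. In naive pools it was 262 TPM and 196 in FPKM, and the cause of the lower FPKM sums is that FPKM totals were below 1000000 (717537 to 774597). Of the other mitosis genes, 96 to 101 were higher and 3 to 5 lower. Rhoa lost its call under 6 alternatives (adjusted p 0.0769 to 0.146), and Dync1h1 was called lower on the FPKM scale (0.0462), with quantile normalization (0.0183) and with the common median (0.0384); the cause was not tested. Deviations of pools of the same number correlated weakly (r of 0.08, 0.02 and 0.05 over 12785 genes), against -0.07 to 0.03 for pools of different numbers. Each GC pool correlated best with the naive pool of its number, whereas naive pool 2 correlated best with GC pool 3. Values this weak cannot decide whether the numbers pair the pools. With the replicate block 48 mitosis genes were higher and 0 lower, and 4342 of all genes were higher and 3618 lower against 4540 and 3852. Depth limits the ratios of genes under 1 TPM in naive B cells.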
